A study of Homo sapiens with 18 samples.

Results

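In A549 lung adenocarcinoma cells, transcripts of the AP-1 transcription factor and 2 further immediate early genes differed between sodium propionate (SP) and no treatment. The members called were not the same at each time, and the 3 h and 12 day groups had no control of their own duration. After 3 h, FOS, FOSB, ATF3, EGR1 and IER3 were higher than in untreated cells, led by FOSB at 9.13-fold. The FOSB fold rested on few control reads, and the FOS and EGR1 calls were lost in some fits that left out a library. After 3 and 12 days, JUN was 5.33-fold and 4.2-fold higher than in the 3 day control, and JUNB was lower. JUN was itself low in that control beside the 24 h control, a difference that was not tested. The 10 genes described here (FOS, FOSB, FOSL1, FOSL2, JUN, JUNB, JUND, ATF3, EGR1 and IER3) were taken by name, not by their measured values, from the 61541 genes listed in each count table. All 10 passed the filter on low counts in both tables.

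AP-1 is a dimer of basic leucine zipper proteins. JUN-family proteins (JUN, JUNB, JUND) pair with each other or with FOS-family proteins (FOS, FOSB, FOSL1, FOSL2), whereas FOS proteins do not form stable dimers of their own. ATF3 belongs to the same structural class and pairs with JUN proteins, and EGR1 is a zinc finger transcription factor. IER3 encodes a small protein of the early growth factor and stress response. Immediate early genes are transcribed within minutes of a stimulus without new protein synthesis, through serum response factor, ternary complex factors, CREB and pre-existing AP-1, and their transcripts are short-lived. In epithelial cells AP-1 is known for the control of growth, stress responses and genes of invasion.

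RNA-seq was performed on A549 cells, an established human non-small cell lung cancer line labelled wild type, grown in high glucose DMEM with 10% fetal bovine serum. Cells were untreated for 24 h (Control_24H) or 3 days (Control_3D), or received 5 mM SP for 3 h (SP_3H), 24 h (SP_24H), 3 days (SP_3D) or 12 days (SP_12D), with 3 libraries per group. SP_3H and SP_24H were set against Control_24H, and SP_3D and SP_12D against Control_3D. The 3 h and 12 day treatments thus had no control of their own duration, and in these comparisons treatment and time in culture cannot be told apart.

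Libraries held 14187401 to 43765330 counts. The 24 h set and the day set stood in separate count tables and were tested separately, so levels set across them are descriptive. The labels do not say whether replicates came from separate cultures, and p-values measure the spread between these libraries. The common biological coefficient of variation was 0.199 in the 24 h set and 0.0996 in the day set. KRT8, a simple epithelial keratin, ranged from 3691 to 8665 CPM (counts scaled to library size), and the leukocyte gene PTPRC did not exceed 0.0956 CPM in any of 18 libraries. EPCAM, another epithelial marker, ranged from 5.57 to 66.4 CPM. The 10 A549 epithelial markers summed to 17810 to 24730 CPM. Of them, 5 were higher and 3 lower at 24 h, 6 and 3 at 3 days, and 7 and 3 at 12 days. The shares of all genes were 16.8% and 12.0%, 25.2% and 23.3%, and 26.4% and 23.4%. CD3E and POSTN were at 0 throughout. The fibroblast marker list rose in sum from 18.7 to 20.0 CPM in Control_3D to 90.7 to 107 CPM in SP_3D and 68.1 to 93.0 CPM in SP_12D, and from 8.68 to 25.6 CPM in Control_24H to 81.9 to 108 CPM in SP_24H. COL1A1, THY1 and LUM were the members called in the day set, while COL1A2 did not exceed 0.0529 CPM in any library. The immune marker list summed to 6.04 to 9.15 CPM in Control_24H, 6.85 to 9.10 in SP_3H and 19.8 to 23.0 in SP_24H, and to 19.9 to 21.9 in Control_3D, 37.9 to 41.6 in SP_3D and 16.5 to 30.8 in SP_12D. CD14 was its called member, higher at 24 h and 3 days. The endothelial list summed to 7.68 to 11.2 CPM in Control_24H, 11.8 to 16.0 in SP_3H and 22.9 to 24.5 in SP_24H, and to 5.64 to 6.36 in Control_3D, 22.9 to 25.7 in SP_3D and 11.6 to 14.1 in SP_12D. ESAM was called higher in all 4 comparisons with control and CDH5 lower at 3 and 12 days. The part of these genes in the results was not tested. In bulk RNA a change in every cell and a change in the number of cells that express a gene cannot be told apart.

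The genes lie on GRCh38 (GENCODE 44) as follows. JUN is at chr1:58776845-58784048 and JUND at chr19:18279694-18281622, both on the minus strand, and JUNB is at chr19:12791486-12793315 on the plus strand. FOS lies at chr14:75278826-75282230, FOSB at chr19:45467995-45475179 and FOSL2 at chr2:28392448-28417317, all on the plus strand, with FOSL1 at chr11:65892049-65900573 on the minus strand. ATF3 spans chr1:212565334-212620777 and EGR1 chr5:138465479-138469303 on the plus strand, and IER3 chr6:30743199-30744548 on the minus strand. JUNB, JUND and IER3 each form 1 block of exonic sequence.

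The sequences before the start sites are shown because 4 of the genes printed rose together at 3 h, and JUN was called in the day set and not in the 24 h set. RefSeq promoters (GRCh38.p14) were matched for 8 of the 10 genes. Over the 250 bases upstream of the start, both strands were searched for TGACGT, the core of the CREB site, which also lies in the full site TGACGTCA, for TGACATCA, the JUN-type AP-1 variant, for TGAGTCA, the classical AP-1 site, and for the CArG box of serum response factor. TGACGT was present in EGR1, FOS, FOSB, FOSL2 and JUND, 5 of 8 genes, against 7.10% of 35116 promoters. TGACATCA was found in JUN and ATF3 (2.37% of all promoters), and the CArG box in EGR1 (1.16%). Sites outside these 250 bases were not searched, so a gene without a motif here may carry it elsewhere. The full TGACGTCA stood in JUND alone of the 8 genes (1.65%). TGAGTCA (4.2% of all promoters) was not among the letters of the windows searched. Capitals mark these motifs, or their reverse complement, in the stretches below, written 5′ to 3′ on the strand of the gene and ending before the annotated transcript.

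FOS (chr14:75278578-75278825, plus strand), FOSB (chr19:45467746-45467994, plus strand) and EGR1 (chr5:138465229-138465478, plus strand) carried TGACGT starting 64, 60 and 67 bases before the start. EGR1 held another copy at 136 bases and 2 CArG boxes closer to the start, the nearer at 83 bases.
FOS: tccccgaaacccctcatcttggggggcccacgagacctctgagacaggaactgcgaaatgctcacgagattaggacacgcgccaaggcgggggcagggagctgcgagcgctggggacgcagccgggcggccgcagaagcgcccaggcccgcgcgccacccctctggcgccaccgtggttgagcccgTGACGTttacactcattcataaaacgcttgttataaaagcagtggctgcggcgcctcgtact
FOSB: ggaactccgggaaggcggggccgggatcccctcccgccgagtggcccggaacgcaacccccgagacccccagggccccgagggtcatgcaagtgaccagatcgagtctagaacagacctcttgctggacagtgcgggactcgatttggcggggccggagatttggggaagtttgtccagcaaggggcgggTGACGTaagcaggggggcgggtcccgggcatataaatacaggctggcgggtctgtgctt
EGR1: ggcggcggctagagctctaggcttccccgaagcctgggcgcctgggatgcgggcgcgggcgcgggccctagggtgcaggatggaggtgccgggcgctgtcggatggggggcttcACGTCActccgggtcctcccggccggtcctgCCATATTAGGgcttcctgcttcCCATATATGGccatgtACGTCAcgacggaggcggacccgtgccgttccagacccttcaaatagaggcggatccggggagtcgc

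ATF3 (chr1:212565157-212565333, plus strand) and JUN (chr1:58784049-58784297, minus strand) carried TGACATCA, at 123 and 67 bases before the RefSeq start.
ATF3: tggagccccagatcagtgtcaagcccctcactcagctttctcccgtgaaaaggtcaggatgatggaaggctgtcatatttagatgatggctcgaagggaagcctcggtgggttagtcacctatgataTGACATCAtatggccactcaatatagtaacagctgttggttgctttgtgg
JUN: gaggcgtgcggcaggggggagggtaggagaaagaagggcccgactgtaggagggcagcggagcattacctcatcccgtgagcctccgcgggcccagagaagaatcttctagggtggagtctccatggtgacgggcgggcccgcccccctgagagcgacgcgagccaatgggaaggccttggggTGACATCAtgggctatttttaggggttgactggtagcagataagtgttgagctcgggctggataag

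Levels were compared between genes per length, as RPKM (counts scaled to library size and exonic length). JUND was by mean the most abundant of the 10 transcripts in every group, at 73.2 ± 10.95 RPKM in Control_24H and 76.6 ± 5.94 RPKM in Control_3D (SD, n = 3). In Control_24H, JUNB (47.6 ± 11.8 RPKM) and IER3 (47.1 ± 6.30 RPKM) followed and overlapped between libraries, as did FOSL2 (31.3 ± 7.95), JUN (28.7 ± 7.13) and FOSL1 (27.1 ± 14.9). ATF3 and FOS, which overlapped, were at 0.739 ± 0.197 and 0.556 ± 0.133 RPKM, and EGR1 and FOSB at 0.140 ± 0.0348 and 0.0443 ± 0.0447 RPKM. In Control_3D the order after JUND was JUNB (52.7 ± 3.22 RPKM), IER3 (42.0 ± 1.26) and FOSL2 (32.4 ± 0.751), each above the next in every library. EGR1 (14.6 ± 5.50 RPKM) and FOS (12.8 ± 4.10) then overlapped, followed by JUN at 6.89 ± 0.393 RPKM. FOSL1, at 5.04 ± 0.476 RPKM, and ATF3, at 1.21 ± 0.131, came next, with FOSB lowest at 0.754 ± 0.303 RPKM and overlapping ATF3.

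**Figure D1:**
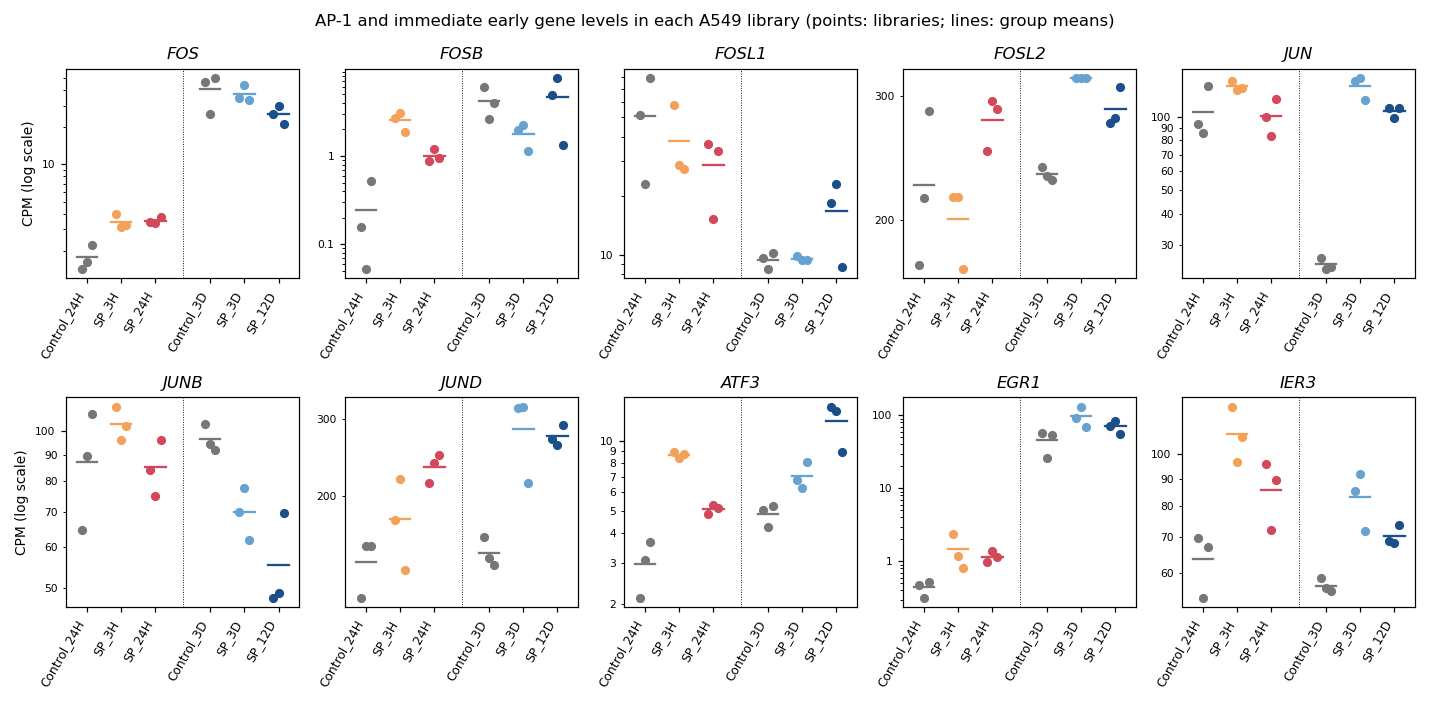
CPM on a log axis for each of the 10 genes in the 18 libraries, by group; points are libraries, lines are group means of 3 libraries, and the dotted line parts the 2 count tables. JUN sits at 23.9 to 26.6 CPM in Control_3D and at 98.8 to 143 CPM in the 6 SP libraries of the day set, while EGR1 and FOS lie far higher in the day set than in the 24 h set.

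At 3 h, 5 of the 10 genes were called higher by edgeR's quasi-likelihood test (adjusted p under 0.05 over all 17377 genes tested), against 7.39% of all genes. None was called lower, at an unadjusted p under 0.05 or by DESeq2 either, against 4.11% of all genes. The median log2 fold change was 0.57 over the 10 genes and 0.0034 over all genes.

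FOSB, a FOS-family subunit, was covered by 3, 1 and 15 reads in the Control_24H libraries and by 38, 96 and 46 reads in SP_3H. The levels were 0.159, 0.0528 and 0.526 CPM in control and 2.68, 3.11 and 1.88 CPM after SP. Every treated library lay above every control library, and the fitted log2 fold change was 3.19 ± 0.49 (SE, adjusted p = 0.0036). The control reads were few, so the size of this fold rests on low counts, and it ranged from 2.78 to 4.53 when 1 library was left out. FOS, the founding member of the family, was at 1.43, 1.64 and 2.24 CPM in control and at 3.95, 3.15 and 3.22 CPM after 3 h. The groups did not overlap, with a log2 fold change of 0.93 ± 0.21 (adjusted p = 0.0193). This call was lost without Control_24H replicate 1, Control_24H replicate 2 or SP_3H replicate 1, with an adjusted p up to 0.0694, and when the 2 groups were fitted alone (0.0765).

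ATF3, a stress-induced AP-1 partner, was at 2.12, 3.07 and 3.68 CPM in control and at 8.96, 8.40 and 8.76 CPM in SP_3H. The treated libraries were close together and all above control, with a log2 fold change of 1.54 ± 0.19 (adjusted p = 0.00157). IER3 rose from 69.7, 53.8 and 67.0 CPM to 123, 97.0 and 108 CPM, without overlap, by 0.78 ± 0.15 on the log2 scale (adjusted p = 0.00966). IER3 shares 525 bases of its exons with the opposite-strand genes HCG20 and IER3-AS1, and strand use in counting was not given, so reads of these genes cannot be told apart. EGR1 was at 0.477, 0.317 and 0.526 CPM in control and at 2.40, 1.2 and 0.815 CPM in SP_3H. The groups did not overlap (log2 fold change 1.63 ± 0.43, adjusted p = 0.0377), but 30 reads in all stood behind the control values. The EGR1 call was lost without any 1 library other than SP_3H replicate 3, with adjusted p from 0.0195 to 0.116 over these 9 fits. It was also lost with the replicate number as a block (0.0713) and when the 2 groups were fitted alone (0.0933).

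The JUN family was not called at 3 h. JUN was at 93.2, 85.4 and 134 CPM in control and at 140, 129 and 131 CPM in SP_3H, and the groups overlapped through Control_24H replicate 3 (log2 fold change 0.35 ± 0.18, adjusted p = 0.261). Without that library JUN was called (adjusted p = 0.0326). JUNB (0.24 ± 0.18) and JUND (0.32 ± 0.18) did not pass the test, nor did FOSL1 (−0.44 ± 0.49) or FOSL2 (−0.16 ± 0.18). FOSL1 was at 51.3, 22.9 and 79.2 CPM in the control libraries.

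At 24 h, 5 genes were again called higher, against 16.8% of all genes, and none lower, against 12.0%. No member was lower at an unadjusted p under 0.05, and DESeq2 called none lower. At an adjusted p under 0.0001 with a 2-fold change, none of the 10 passed by edgeR at 3 h (0% of all genes) or 24 h (0.685% of all genes). DESeq2 passed FOSB and ATF3 at 3 h, but its share of all genes was not computed, so the edgeR shares do not apply to it. FOS, FOSB, ATF3 and EGR1 were called at both times, whereas IER3 was called at 3 h and JUND at 24 h. Both comparisons share the 3 Control_24H libraries. The median log2 fold change was 0.58 over the 10 genes and −0.0099 over all genes.

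FOS was at 3.40, 3.38 and 3.78 CPM in SP_24H, all above control (log2 fold change 0.97 ± 0.20, adjusted p = 0.00701). FOSB was at 0.890, 1.21 and 0.946 CPM, also above every control library, with a log2 fold change of 1.88 ± 0.51 (adjusted p = 0.0227). ATF3 was at 4.86, 5.30 and 5.13 CPM, a log2 fold change of 0.78 ± 0.19 (adjusted p = 0.0147). EGR1 was at 0.971, 1.37 and 1.15 CPM, a log2 fold change of 1.38 ± 0.42 (adjusted p = 0.035). ATF3 and EGR1 also lay above every control library. IER3 reached 95.7, 72.3 and 89.7 CPM and lay above control in each library. Its log2 fold change of 0.43 ± 0.15 missed the threshold (adjusted p = 0.053) and passed it with no filter on low counts (0.0296). IER3 was called in 1 of 9 fits without 1 library. It was not called with an offset for GC content and length, under which 4 genes were called higher and 1 lower.

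JUND, the JUN-family subunit found in most resting cells, was at 117, 154 and 153 CPM in Control_24H and at 214, 238 and 247 CPM in SP_24H. The groups did not overlap, and the log2 fold change was 0.72 ± 0.18 (adjusted p = 0.0144). JUND is 69.9% G or C over its exons, the highest of the 10 genes, and the read-weighted GC content of the libraries was 48.7 to 50.4% in Control_24H and 50.0 to 50.7% in SP_24H. With an offset for GC content and length the JUND log2 fold change was 0.04 ± 0.12 (adjusted p = 0.825). JUNB, at 64.9% GC, had a log2 fold change of −0.03 ± 0.18 without the offset (adjusted p = 0.9) and of −0.53 ± 0.14 with it (adjusted p = 0.0114). JUN was at 99.3, 83.0 and 118 CPM in SP_24H, overlapping control (log2 fold change −0.06 ± 0.18, adjusted p = 0.828).

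No label states a pairing, but same-numbered SP_24H and Control_24H libraries were taken as pairs from their correlations. In order of replicate number, read-weighted GC content was 48.7, 49.1 and 50.4% in Control_24H and 50.0, 50.4 and 50.7% in SP_24H. It thus rose with the number in both groups. The correlations carried no correction for GC content, and its part in them was not tested. With the replicate number as a block over the 9 libraries, EGR1 (adjusted p = 0.0558) and FOSB (adjusted p = 0.0528) lost their calls and IER3 gained one (adjusted p = 0.00945). With the block and these 6 libraries alone, a fit chosen after seeing the data, 7 genes were called, the 5 above with IER3 (adjusted p = 0.0138) and FOSL1, which was lower by a log2 fold change of −0.78 ± 0.17 (adjusted p = 0.011). FOSL1 was at 36.6, 15.4 and 34.0 CPM in SP_24H, below the control library of the same number each time. Leaving out 1 library at a time left 2 to 6 genes called. JUND was lost without Control_24H replicate 1, SP_24H replicate 2 or SP_24H replicate 3 (adjusted p up to 0.0573), and ATF3 without SP_24H replicate 2 (0.0551). FOSB was lost without Control_24H replicates 1 or 2 or SP_24H replicate 2 (up to 0.0845), and EGR1 without those or SP_24H replicate 3 (up to 0.12).

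**Figure D2:**
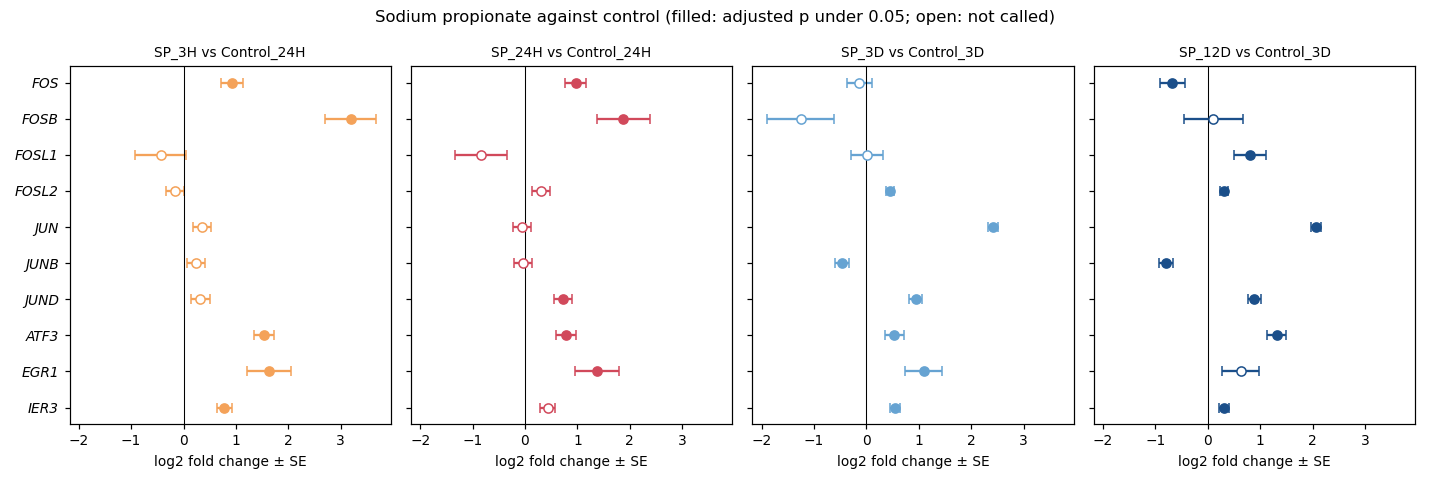
Log2 fold change (bar: SE) of each gene in the 4 comparisons of SP with control, with filled points for adjusted p under 0.05. FOSB is the farthest right at 3 h (3.19) and JUN at 3 days (2.41), and JUNB lies left of 0 at 3 and 12 days.

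Between the treated groups, FOSB and ATF3 were lower at 24 h than at 3 h, against 8.40% of all genes lower and 11.7% higher. FOSB fell from 2.68, 3.11 and 1.88 CPM to 0.890, 1.21 and 0.946 CPM (log2 fold change −1.31 ± 0.39, adjusted p = 0.0411). ATF3 fell from 8.40 to 8.96 CPM to 4.86 to 5.30 CPM (−0.77 ± 0.18, adjusted p = 0.0176). None of the 10 passed the adjusted p under 0.0001 with a 2-fold change, by edgeR or DESeq2, against 0.0288% of all genes. No gene was called higher by edgeR or DESeq2, and 2 were higher at an unadjusted p under 0.05. FOS did not differ detectably, at 0.04 ± 0.19 (adjusted p = 0.884). Both calls were lost without SP_3H replicate 1 or any 1 SP_24H library. FOSB was also lost without SP_3H replicate 2, with adjusted p up to 0.127, and with the replicate block (0.0759), and ATF3 without SP_3H replicate 3, up to 0.0624. With the GC content and length offset 6 genes were called, with JUN (−0.56 ± 0.14), JUNB (−0.65 ± 0.14) and IER3 (−0.54 ± 0.16) lower and FOSL2 (0.37 ± 0.11) higher.

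After 3 days of SP, 6 of the genes passed as higher and JUNB alone as lower (1 gene), against 25.2% and 23.3% of all 17775 genes tested. The median log2 fold change was 0.50 over the 10 genes and −0.0242 over all genes. JUN, a transactivating subunit of AP-1, was at 26.6, 23.9 and 24.4 CPM in Control_3D and at 139, 143 and 117 CPM in SP_3D. The groups were far apart, with a log2 fold change of 2.41 ± 0.096 (adjusted p = 3.95e-11). JUN was the 1 gene of the 10 that also passed an adjusted p under 0.0001 with a 2-fold change, which 8.44% of all genes did. At 12 days JUN was at 109, 98.8 and 108 CPM, again above every control library (2.07 ± 0.095, adjusted p = 1.61e-10). JUN was called at 3 and 12 days and not at 3 or 24 h, and this difference between the separately counted sets was not tested. The day calls held in each of the 9 fits without 1 library, with log2 fold changes of 2.35 to 2.49 at 3 days and 2.02 to 2.12 at 12 days.

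JUNB, which dimerizes with the same partners and activates fewer promoters than JUN, moved the other way. It was at 103, 94.5 and 91.7 CPM in Control_3D, at 69.9, 77.8 and 61.9 CPM in SP_3D and at 47.9, 48.9 and 69.6 CPM in SP_12D. Treated libraries were below every control library at both times (−0.46 ± 0.13, adjusted p = 0.00887 at 3 days, and −0.79 ± 0.13, adjusted p = 0.000174 at 12 days). JUNB overlaps the exons of the opposite-strand gene HOOK2. JUND rose from 161, 144 and 139 CPM to 318, 319 and 214 CPM at 3 days (0.94 ± 0.13, adjusted p = 3.61e-05) and to 269, 262 and 291 CPM at 12 days (0.89 ± 0.13, adjusted p = 5.62e-05). With the GC content and length offset JUND was 0.38 ± 0.092 and 0.42 ± 0.092 and remained called at both times, while JUNB was −0.80 ± 0.10 and −1.03 ± 0.11.

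In the FOS family, FOSL2 was called higher at both day times. FOSL2, which forms AP-1 dimers with JUN proteins, rose from 238, 231 and 227 CPM to 318, 318 and 318 CPM at 3 days (0.46 ± 0.075, adjusted p = 0.000122) and 275, 279 and 309 CPM at 12 days (0.31 ± 0.075, adjusted p = 0.00276). FOSL1, another partner of JUN, stayed within its control range at 3 days (0.01 ± 0.31, adjusted p = 0.98). At 12 days it was at 18.5, 23.1 and 8.68 CPM against 9.71, 8.52 and 10.3 CPM in control, so that 2 of 3 treated libraries were above control (0.81 ± 0.30, adjusted p = 0.0494). This call was lost without any 1 library other than SP_12D replicate 3, with adjusted p up to 0.14, and strengthened to 1.72e-08 without that one, which stood apart from the other two. It was also lost with the GC content and length offset (0.0719), with the replicate block (0.0675) and when the 2 groups were fitted alone (0.0952). A single pseudogene of FOSL1 carries its symbol, and reads could be split with it.

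FOS was at 46.5, 25.8 and 50.0 CPM in Control_3D and at 25.7, 29.7 and 21.4 CPM in SP_12D. Control_3D replicate 2 was low and the groups overlapped, with a log2 fold change of −0.68 ± 0.24 (adjusted p = 0.0454). The call was lost in 5 of 9 fits without 1 library (Control_3D replicates 1 or 3, SP_3D replicate 1, SP_12D replicates 1 or 3), with adjusted p up to 0.141, in DESeq2 (0.0541), with the replicate block (0.0763) and when the 2 groups were fitted alone (0.0528). At 3 days FOS was at −0.13 ± 0.24 (adjusted p = 0.676). FOSB was at 5.98, 2.63 and 3.96 CPM in control and at 1.95, 2.26 and 1.14 CPM in SP_3D, below each control library without being called (−1.25 ± 0.64, adjusted p = 0.144). It was called lower when the 2 groups were fitted alone (adjusted p = 0.000612) or without SP_12D replicate 3 (0.000363). At 12 days FOSB was at 4.93, 7.63 and 1.33 CPM, on both sides of control (0.11 ± 0.56, adjusted p = 0.894).

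ATF3 was higher at both times. It was at 5.02, 4.26 and 5.26 CPM in Control_3D, at 6.77, 6.28 and 8.08 CPM in SP_3D and at 14.0, 13.4 and 8.95 CPM in SP_12D, above control in 3 of 3 libraries each time. The log2 fold changes were 0.54 ± 0.18 (adjusted p = 0.0251) and 1.31 ± 0.18 (adjusted p = 1.61e-05). The 3 day call was lost without Control_3D replicates 1 or 2 or SP_3D replicate 3 (adjusted p up to 0.117). At 12 days ATF3 and JUN also passed the adjusted p under 0.0001 with a 2-fold change, against 9.11% of all genes. EGR1 was at 56.7, 25.8 and 54.6 CPM in Control_3D and at 93.5, 130 and 69.7 CPM in SP_3D, above each control library (1.09 ± 0.35, adjusted p = 0.0341). That call was lost in 5 of 9 fits without 1 library (Control_3D replicates 2 or 3, SP_3D replicates 1 or 2, SP_12D replicate 3), with adjusted p up to 0.0939, with no filter on low counts (0.103) and when the 2 groups were fitted alone (0.0721). At 12 days EGR1 was at 71.6, 84.4 and 56.4 CPM (0.62 ± 0.35, adjusted p = 0.178). IER3 rose from 58.7, 56.1 and 55.4 CPM to 85.5, 91.8 and 71.9 CPM at 3 days (0.55 ± 0.091, adjusted p = 0.000132). It was at 68.7, 68.3 and 73.7 CPM at 12 days (0.31 ± 0.091, adjusted p = 0.0107).

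At 12 days 6 genes were higher and 2 lower, against 26.4% and 23.4% of all genes, and the median log2 fold change was 0.47 over the 10 genes against −0.0037 over all genes. The 3 and 12 day comparisons share the Control_3D libraries. Between SP_12D and SP_3D directly, ATF3 was higher at 12 days (0.77 ± 0.17, adjusted p = 0.0109) and JUN lower (−0.34 ± 0.088, adjusted p = 0.0262), against 4.46% and 3.65% of all genes. None passed the adjusted p under 0.0001 with a 2-fold change, by edgeR or DESeq2 (0.180% of all genes). JUN at 98.8 to 109 CPM was below its 117 to 143 CPM at 3 days, without overlap. ATF3 was lost without SP_3D replicates 1 or 2 or SP_12D replicate 1 (adjusted p up to 0.0762). JUN was lost without SP_3D or SP_12D replicates 1 or 2 (up to 0.131) with the GC content and length offset (0.0675) and when the 2 groups were fitted alone (0.0609). SP_12D replicate 3 was the lowest of its group in FOS, FOSB, FOSL1, ATF3 and EGR1 and the highest in FOSL2, JUNB, JUND and IER3. In the fit without this library, 7 of the 10 genes were called between 12 and 3 days. The share of all genes called in that fit was not computed, so this count cannot be read as particular to these genes.

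Per length, JUN made up 5.06 ± 0.136% of the JUN, JUNB and JUND transcripts in Control_3D, 16.7 ± 1.35% in SP_3D and 14.4 ± 0.848% in SP_12D (SD, n = 3). The JUNB share was 38.7 ± 0.337% in Control_3D, 17.4 ± 1.65% in SP_3D and 14.95 ± 2.14% in SP_12D. JUND held 56.3 ± 0.417%, 65.9 ± 2.95% and 70.6 ± 1.41%. The family sum was 136 ± 9.53 RPKM in Control_3D, 222 ± 39.2 in SP_3D and 201 ± 15.4 in SP_12D. These shares carry no correction for GC content, and with the offset the log2 fold change at 24 h was 0.04 for JUND and −0.53 for JUNB. At 24 h JUND held 49.2 ± 3.54% in control and 62.1 ± 3.26% after SP, and JUN 19.3 ± 3.24% and 14.1 ± 1.64%. FOSL2 was the largest part of the FOS family by mean in every group, from 55.0 ± 13.2% in Control_24H to 72.2 ± 2.21% in SP_3D. In single libraries FOSL1 exceeded FOSL2 in Control_24H replicate 1 (27.2 against 24.1 RPKM) and replicate 3 (41.95 against 39.8). It also did so in SP_3H replicate 1 (30.6 against 30.1 RPKM). FOSL1 held 43.95 ± 13.4% in Control_24H and 9.89 ± 0.332% in Control_3D, and FOS 0.976 ± 0.200% and 24.7 ± 6.03%. Shares are of RNA and say nothing of the protein dimers.

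**Figure D3:**
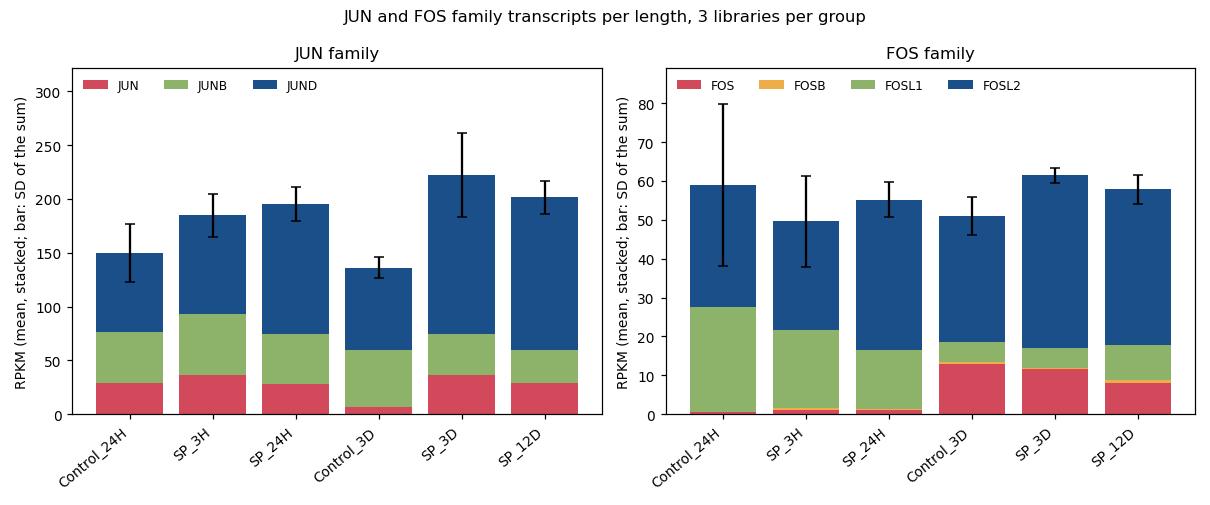
Stacked mean RPKM of the JUN family (left) and the FOS family (right) in the 6 groups, with the SD of the family sum over 3 libraries as the error bar. JUND is the largest part of every JUN family bar, and JUN is smallest in Control_3D at 6.89 RPKM.

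The gene lists that follow are described by their counts, which are read against the shares of all genes called higher and lower, 7.39% and 4.11% at 3 h, 16.8% and 12.0% at 24 h, 25.2% and 23.3% at 3 days, and 26.4% and 23.4% at 12 days. A larger share of all genes was called in the day set, so a larger count there is not by itself particular to a list. No list was tested against the others.

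Of 35 other immediate early genes listed, 31 were tested. At 3 h, 10 rose and 1 fell (32.3% and 3.23% of the list), with a list median of 0.36 on the log2 scale against 0.0034 for all genes. ARC, an activity-regulated cytoskeletal gene, rose by 3.32 ± 0.22 (5.21 against 0.522 CPM, adjusted p = 0.000104), and NR4A3, an orphan nuclear receptor, by 2.35 ± 0.31 (adjusted p = 0.00206). IER5L was lower (−0.46 ± 0.11, adjusted p = 0.0261). At 24 h 8 rose and 2 fell (25.8% and 6.45%), including ARC (2.93 ± 0.21) and KLF2, a zinc finger factor (1.22 ± 0.23), with KLF10 lower (−0.51 ± 0.14). From 3 to 24 h of SP, 11 fell and 4 rose (35.5% and 12.9%, against 8.40% and 11.7% of all genes). NR4A3 (−1.25 ± 0.28) and CCN1, a secreted matrix protein (−1.19 ± 0.26), were among those that fell. At 3 days 9 rose and 7 fell (29.0% and 22.6%), near the shares of all genes, and at 12 days 13 rose and 12 fell (41.9% and 38.7%). ARC was the largest rise at both times (4.22 ± 0.31 and 4.07 ± 0.31), with the pseudokinase TRIB1 at 3 days (1.70 ± 0.14) and the kinase SGK1 at 12 days (1.75 ± 0.089). NR4A2 fell at both times (−1.57 ± 0.15 and −1.45 ± 0.14). The list medians at 24 h, 3 days and 12 days were 0.05, −0.0019 and 0.08.

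**Figure D4:**
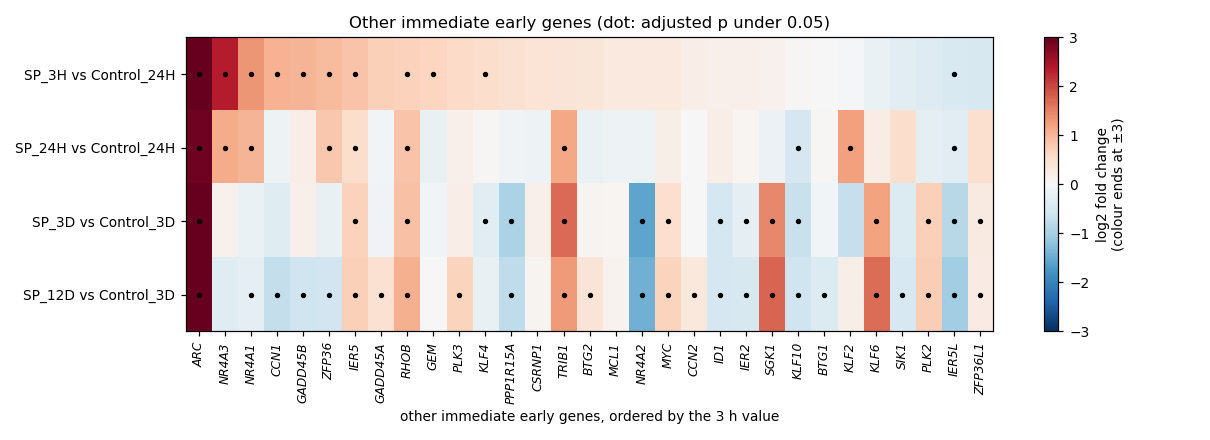
Log2 fold change of the 31 other immediate early genes (columns, ordered by the 3 h value) in the 4 comparisons (rows), with colours ending at ±3 and dots for adjusted p under 0.05. ARC is high in every row, and most of the genes called higher at 3 h stand left while the day rows are mixed.

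Kinases and feedback inhibitors upstream of AP-1 moved in both directions. Of 16 MAP kinase feedback genes tested, 5 rose and 3 fell at 3 h (31.2% and 18.8% of the list), 4 and 3 at 24 h (25.0% and 18.8%), and 7 and 5 at both 3 and 12 days (43.8% and 31.2%). The dual-specificity phosphatase gene DUSP14 (0.89 ± 0.11) and SPRED3, a Sprouty-related inhibitor (1.497 ± 0.30), rose at 3 h, while SPRY2 (−0.81 ± 0.12) and DUSP4 (−0.80 ± 0.11) fell. DUSP8, a phosphatase of stress-activated kinases, rose by 2.11 ± 0.12 at 3 days and 1.74 ± 0.12 at 12 days. DUSP6, an ERK phosphatase, was lower (−0.82 ± 0.15 and −0.97 ± 0.15), as was ERRFI1, an inhibitor of EGF receptor (−0.99 ± 0.077 and −1.30 ± 0.077). Of 25 MAP kinase genes, 4 rose and 1 fell at 3 h (16.0% and 4.0% of the list), 6 and 3 at 24 h (24.0% and 12.0%), 10 and 6 at 3 days (40% and 24.0%), and 10 and 3 at 12 days (40% and 12.0%). MAP2K3, an upstream kinase of the stress pathway, rose by 1.42 ± 0.15 at 3 h and was lower at 24 h than at 3 h (−1.14 ± 0.15). MAPK11 rose by 1.49 ± 0.10 at 3 days and 1.40 ± 0.10 at 12 days.

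Of 14 serum response factor, ternary complex and CREB genes, 1 rose and 1 fell at 3 h (7.14% of the list each), and none rose and 1 fell at 24 h (no gene rose at an unadjusted p under 0.05 or by DESeq2). At 3 days 2 rose and 8 fell (14.3% and 57.1%), and at 12 days 1 rose and 7 fell (7.14% and 50.0%), with list medians of −0.36 and −0.32. CREBBP, a histone acetyltransferase and coactivator of CREB and AP-1, was lower by log2 fold changes of −0.998 ± 0.085 and −1.11 ± 0.085. ELK3, a ternary complex factor, was higher (0.53 ± 0.084 and 0.59 ± 0.084). Of the AP-1 partners, 9 were tested in the 24 h set and 10 in the day set, and 1 rose and 1 fell at 3 h and at 24 h (11.1% each). MAFF, a small MAF protein, rose at 3 h (0.82 ± 0.21, adjusted p = 0.0318) and MAFG fell (−0.57 ± 0.11). In the day set MAF rose (2.07 ± 0.33 and 3.49 ± 0.29) and JDP2, an AP-1 repressor, fell (−0.87 ± 0.091 and −1.08 ± 0.091), among 1 rise and 4 falls at 3 days (10.0% and 40%) and 2 rises and 4 falls at 12 days (20.0% and 40%).

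Of 32 genes listed as AP-1 targets in other systems, 24 were tested, and the shares are of these. MMP1, MMP3, MMP10, MMP13 and IL6 were among those that did not pass the filter on low counts. At 3 h 1 rose and 3 fell (4.17% and 12.5%), and at 24 h 4 rose and 1 fell (16.7% and 4.17%). The list medians were near 0 (−0.0021 and −0.0039). At 3 days 12 rose and 4 fell (50.0% and 16.7%, median 0.27), and at 12 days 15 rose and 4 fell (62.5% and 16.7%, median 0.48). HBEGF, an EGF receptor ligand, rose at 3 h (1.47 ± 0.29, adjusted p = 0.0116) and 24 h (0.98 ± 0.29, adjusted p = 0.0318). CXCL8, a neutrophil chemokine, rose by 1.35 ± 0.15 at 3 days and 2.11 ± 0.14 at 12 days. VEGFA, an angiogenic factor, was lower (−0.61 ± 0.080 and −0.90 ± 0.081). Of 12 heat shock genes, 2 rose at 3 h (16.7%), HSPA1A (1.03 ± 0.23) and HSPA1B (1.29 ± 0.30), which are near-identical copies and share reads. At 24 h 1 rose and 5 fell (8.33% and 41.7%), at 3 days 6 rose and 1 fell (50.0% and 8.33%), and at 12 days 8 rose (66.7%). None fell at 3 h or 12 days by edgeR, by DESeq2 or at an unadjusted p under 0.05. Of 15 reference genes, none was called at 3 h, at an unadjusted p under 0.05 or by DESeq2 either, while 3 fell at 24 h (20.0%), 2 rose and 3 fell at 3 days (13.3% and 20.0%), and 1 rose and 2 fell at 12 days (6.67% and 13.3%).

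Over the 18 libraries, with log2 CPM centred on the mean of each table, the protein-coding gene most like each member was sought among 13441 candidates. The Pearson correlations are descriptions, since these libraries share groups and depth. JUND was nearest to CMTM8 (r = 0.965), FOSL2 to SOX9 (0.956), JUN to COL13A1 (0.954) and ATF3 to PRKAB2 (0.947). IER3 was nearest to CDC34 (0.912), FOSL1 to TNFRSF10A (0.900) and JUNB to TP53I13 (0.892). FOSB was nearest to PHLDB3 (0.839) and FOS to TUT1 (0.837).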

How the data were processed

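RNA-seq of A549 cells (18 libraries, 6 groups of 3) was analysed from 2 tables of counts per gene that the authors deposited. Per the labels and methods, libraries were made from total RNA with a NEBNext Ultra kit, reads were aligned with STAR 2.7.9a to GRCh38 and counted with featureCounts under R 4.2.1. Strand and multi-mapping settings are not given in the sources used here.

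Each table was fitted once with all 9 libraries in edgeR 4.0.16 (TMM scaling, filterByExpr with a minimum count of 10, robust quasi-likelihood), with Benjamini-Hochberg adjustment over all genes tested. The threshold for a call was an adjusted p of 0.05. CPM and RPKM used TMM-scaled library sizes and GENCODE 44 exonic lengths (61369 of 61541 genes matched). log2 CPM used a prior count of 2. All 10 genes are described, and at most 4 called genes per list and comparison are named: the 2 largest rises and falls without overlap and with a mean of at least 100 counts, or all where 6 or fewer were called. Some genes that this rule names are not reported here. The members, lists and tests were chosen with earlier results of these data known.

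Alternatives were DESeq2 1.42.0, DESeq2 size factors, no filter, 2 groups alone, a replicate block, an offset for GC content and length (natural splines, 5 degrees of freedom), the study's thresholds, and leaving out each library. Deviations of same-numbered SP_24H and Control_24H libraries from their group means correlated at 0.499, 0.170 and 0.504, all above 0.1, so the numbers were taken as pairs there and not elsewhere. No label states a pairing, and SP_24H replicate 2 also correlated with Control_24H replicate 3 (0.175). These correlations carried no correction for GC content. Same-numbered SP_3H and Control_24H libraries correlated at −0.0863, −0.0278 and −0.592.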

Additional observations from a re-analysis of the deposited data

Results flagged for a closer look

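The levels of 3 of the genes, FOSB, ATF3 and JUN, differed between treatment times by the direct test of the treated groups, in which treatment and time in culture cannot be told apart. FOSB was lower at 24 h than at 3 h by a log2 fold change of −1.31 ± 0.39 (edgeR, adjusted p = 0.0411), in 3 of 3 libraries, and lost this call with the replicate block (0.0759). ATF3 was lower by −0.77 ± 0.18 (adjusted p = 0.0176). JUN was lower at 12 days than at 3 days (−0.34 ± 0.088, adjusted p = 0.0262), a call lost when the 2 groups were fitted alone (0.0609) or with the GC content and length offset (0.0675), and ATF3 was higher (0.77 ± 0.17, adjusted p = 0.0109).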

How the results depend on the processing

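The number of genes called kept within 1.5 times of its value under most alternatives. At 3 h it was 3 when the 2 groups were fitted alone, against 5. Under the study's adjusted p under 0.0001 and 2-fold change it was 0 at 3 h and at 24 h, 1 at 3 days, 2 at 12 days and 0 between the treated groups of either set. DESeq2 gave 2 genes past that threshold at 3 h. Between 24 h and 3 h of SP it was 2, against 4 in the 2 groups alone and 6 with the GC content and length offset, with or without the replicate block. Between 12 and 3 days it was 2, against 4 with no filter on low counts and 1 in the 2 groups alone or with the offset, with or without the block. Leaving out 1 library gave 3 to 5 genes at 3 h, 2 to 6 at 24 h, 5 to 7 at 3 days, 6 to 7 at 12 days, 0 to 4 between 24 h and 3 h and 0 to 7 between 12 and 3 days. The cause was not tested. The share of all genes called was computed for the main edgeR fits alone, so these alternative counts have none beside them.

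Signs turned for genes that were not called. With the offset these were FOSL1 at 3 days (−0.115, and −0.121 with the block), FOS between 24 h and 3 h (−0.0616, and −0.0585), JUND between 24 h and 3 h (−0.0549, and −0.0458) and JUND between 12 and 3 days (0.0437, and 0.0536). With the replicate block FOSB at 12 days was −0.0149, and −0.0758 with the offset as well. Without 1 library the log2 fold changes ranged over 0: FOSL1 from −0.87 to 0.0207 and FOSL2 from −0.34 to 0.0481 at 3 h, JUN from −0.19 to 0.16 and JUNB from −0.24 to 0.14 at 24 h, FOS from −0.38 to 0.0329 and FOSL1 from −0.0648 to 0.0685 at 3 days, FOSB from −0.53 to 0.55 at 12 days, FOS from −0.0191 to 0.14, FOSL1 from −0.62 to 0.0203 and EGR1 from −0.55 to 0.20 between 24 h and 3 h, and JUND from −0.23 to 0.0321 between 12 and 3 days. Of 970 values of single genes, 823 kept their direction and side of the threshold, 80 lost and 39 gained a call and 28 turned sign. Outside the 24 h comparison the replicate numbers were not taken as pairs, and the block gave 4 genes at 3 h, 7 at 3 days, 6 at 12 days and 2 between each pair of treated groups. Between 24 h and 3 h FOSB was lost with it (adjusted p = 0.0759) and IER3 gained (0.0273). Few reads limit FOSB and EGR1 in the 24 h set.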

Other observations

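EGR1 and FOS stood at different levels in the 2 untreated groups. EGR1 was at 0.477, 0.317 and 0.526 CPM in Control_24H and at 56.7, 25.8 and 54.6 CPM in Control_3D, a log2 difference of 6.41 that 1 of 16654 genes tested in both tables exceeded. FOS differed by 4.44, exceeded by 8 genes, and FOSB by 3.95, exceeded by 22 genes. JUN went the other way, lower in Control_3D by −2.03, as did FOSL1 (−2.24), while JUND (0.08), FOSL2 (0.08) and JUNB (0.18) were at like levels. Time in culture and the separate processing of the tables cannot be told apart here, and the difference was not tested.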
